A study of Mus musculus with 7 samples.

Results

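The collagen genes are the family whose symbols read Col, a type number, the letter a and a chain number, and they were taken by that pattern from the genes measured in mouse retinal pigment epithelium (RPE). They came to 44 of 19938 genes, each read by the probe set annotated to that gene alone with the highest mean signal. Each chain winds with others into a triple helix, and the helices build the fibrils, networks and filaments of the extracellular matrix. The RPE rests on Bruch's membrane, a layered sheet whose outer layers hold fibrils and whose basal laminae hold collagen IV networks.

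The samples were 3 from Mfrp rd6 mice and 4 from wild-type mice, all on C57Bl/6J, with 1 whole-transcript Affymetrix array each. Mfrp encodes a membrane protein of the RPE, and rd6 is a recessive, spontaneous allele carried in every cell of the animal that leads to retinal degeneration. The age field gives 12 weeks for all Mfrp rd6 samples and 8 weeks for all wild-type samples, which leaves age and genotype impossible to tell apart. The growth protocol instead gives 12 weeks for Mfrp rd6 replicate 1 alone and 8 weeks for the rest. The labels do not say whether the replicates came from separate animals or from pools, so the spread that the p-values measure may be technical.

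The RPE was shaken loose from eyecups, and the labelled tissue was checked by 10 RPE markers, of which 1 was lower. Their mean lay between 11.43 and 11.50 in Mfrp rd6 and between 11.48 and 11.58 in wild type on the log2 scale, and the channel gene Best1 read 5.73 to 5.95 in Mfrp rd6 and 5.75 to 6.02 in wild type. The keratin Krt5, a marker of surface epithelium, read 13.14 to 13.15 in Mfrp rd6 and 13.09 to 13.16 in wild type. Markers of microglia and macrophages (8 of 10 higher, mean 8.33 to 8.89 in Mfrp rd6, against 6.80 to 6.94 in wild type) and of skeletal muscle (3 of 10 higher, 8.42 to 9.43 against 7.06 to 8.38) differed between the groups. The endothelial mean was 7.40 to 7.78 in Mfrp rd6, against 6.79 to 7.28 in wild type, with 2 of 10 markers called higher. Called or not, all 10 muscle markers had positive differences (0.74 to 2.21), as did all 10 endothelial markers (0.28 to 0.82) and 9 of 10 microglial markers. Rod markers averaged 6.91 to 7.27 in Mfrp rd6, against 7.13 to 8.33 in wild type. Of the 8 rod markers 0 were called, and all 8 had negative differences (-0.85 to -0.185). Lens crystallin was seen on 1 array, where Cryaa read 9.75 in Mfrp rd6 replicate 2, against 5.69 to 6.15 on the other arrays. The probe set for Mfrp is shared with its neighbour C1qtnf5 and read 11.17 ± 0.07 in Mfrp rd6 (SD, n = 3) and 11.33 ± 0.12 in wild type (SD, n = 4), and it does not check the genotype. In such bulk RNA, fewer cells of a type and less RNA per cell cannot be told apart.

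Col8a1 was the only collagen gene that passed the test, and it was higher in the Mfrp rd6 samples. With limma and Benjamini-Hochberg adjustment over all 19938 genes at a threshold of 0.05, 1 of the 44 collagen genes was higher and 0 were lower, which is 2.27% called, against 2.15% of all genes called in either direction (1.34% higher and 0.813% lower). At an unadjusted limma p under 0.05 there were 3 higher and 4 lower collagen genes, 15.9% of the family, against 15.4% of all genes. The 3 Mfrp rd6 arrays all lay above the 4 wild-type arrays for 4 collagen genes and all below them for 3, which is 15.9% without overlap, against 15.3% of all genes (5.52% higher and 9.82% lower). All these shares are near the background, so the family of 44 as a whole did not stand apart from the other genes in how often its members differed. Of these members 27 lay below the median signal of all genes. In a fit limited to genes above that median, 2 of 17 collagen genes passed, against 516 of 9969 genes, so the share called depends on the filter.

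The differences within the family were small. The median difference, Mfrp rd6 minus wild type, was -0.01 over the 44 genes and -0.02 over all genes on the log2 scale, and 19 collagen genes had a positive difference (43.2%, against 43.3% of all genes). The differences ran from -0.33 for Col8a2 to 0.47 for Col8a1, and 28 of the 44 were under 0.1 in size. The 95% confidence intervals of all 44 lay between -0.59 and 0.68, and those of 39 lay within 0.5 on either side of 0. Signals of different probe sets are not on a common scale, so levels of different genes are not compared.

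**Figure D1:**
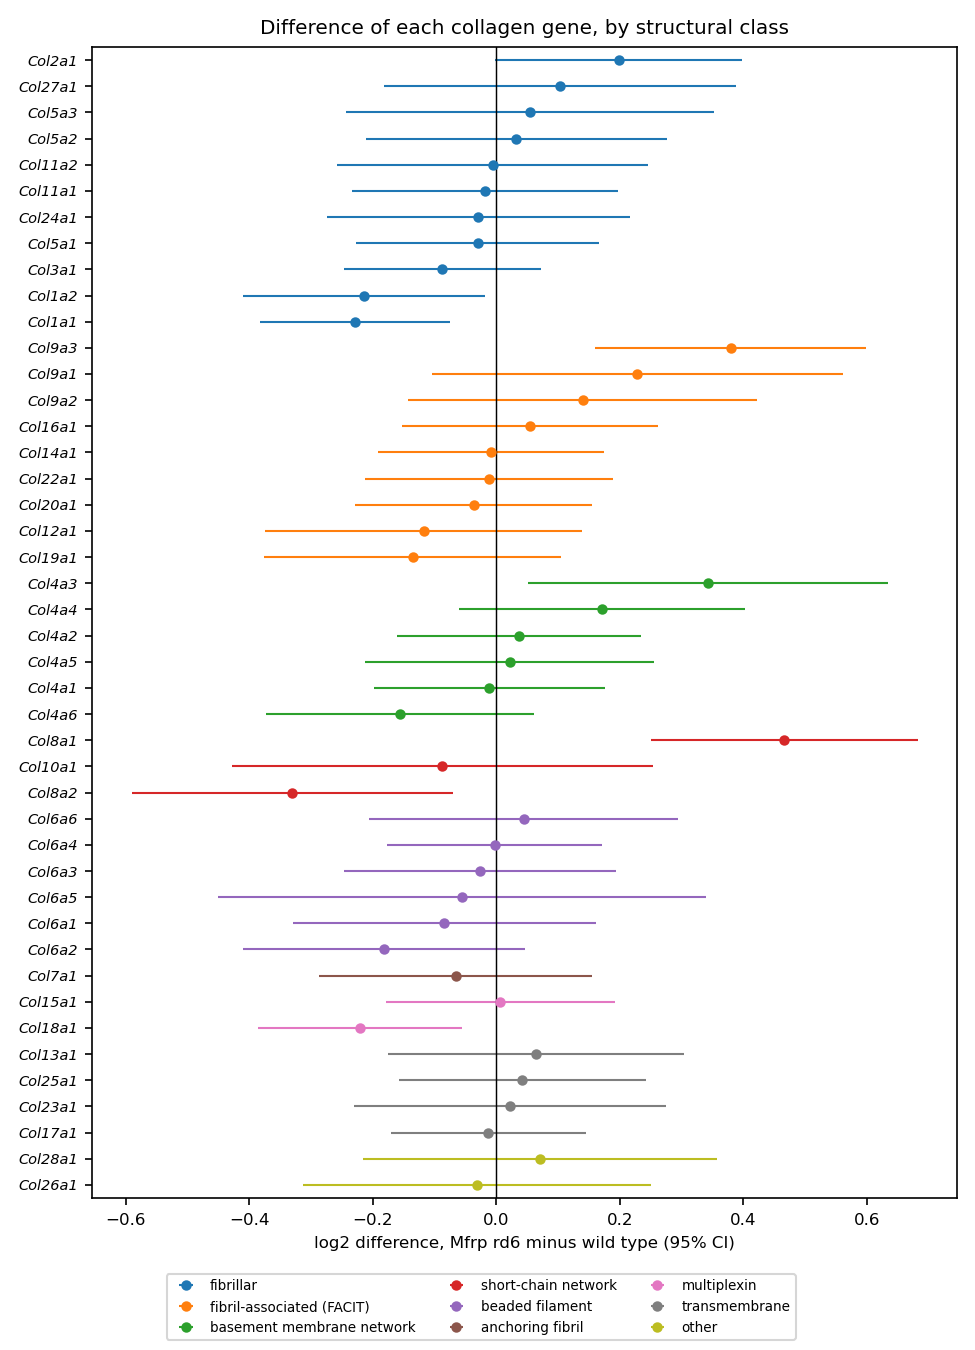
The log2 difference, Mfrp rd6 (n = 3 arrays) minus wild type (n = 4 arrays), of each of the 44 collagen genes, with its 95% confidence interval from limma, coloured by structural class and ordered within it. Col8a1 lies farthest to the right at 0.47 and its partner chain Col8a2 farthest to the left at -0.33, while most intervals cross 0.

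The short-chain network collagens form hexagonal lattices rather than fibrils, and collagen VIII, made of Col8a1 and Col8a2 chains, is a component of Descemet's membrane of the cornea and of vascular and Bruch's membrane matrix. Col8a1 read 12.21, 12.19 and 12.10 in Mfrp rd6 replicates 1 to 3, against 11.70, 11.57, 11.94 and 11.59 in wild-type replicates 1 to 4. Every Mfrp rd6 array lay above every wild-type array, and wild-type replicate 3 came closest to them. The means were 12.17 ± 0.06 in Mfrp rd6 (SD, n = 3) and 11.70 ± 0.17 in wild type (SD, n = 4), a difference of 0.47 (SE 0.10, limma adjusted p = 0.0419), or 1.38-fold. The call did not hold in most fits with fewer arrays. Without 1 array, Col8a1 passed in 1 of 7 fits (limma adjusted p of 0.0126 to 0.14), although its difference stayed at 0.42 to 0.55. It passed without wild-type replicate 3 and missed the threshold without any other array, including Mfrp rd6 replicate 1, whose omission leaves equal ages under the growth protocol (0.45, limma adjusted p = 0.14).

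Col8a2, the other chain of collagen VIII, differed in the opposite direction without passing the test. It read 8.88, 9.09 and 8.94 in Mfrp rd6, against 9.07, 9.27, 9.59 and 9.27 in wild type. The groups overlapped, since Mfrp rd6 replicate 2 lay just above wild-type replicate 1. The difference was -0.33 (95% confidence interval -0.59 to -0.07, limma adjusted p = 0.21). Within each array the log2 signal of Col8a1 minus that of Col8a2 was 3.33, 3.10 and 3.16 in Mfrp rd6, against 2.63, 2.30, 2.35 and 2.32 in wild type, so that this within-array difference was larger on every Mfrp rd6 array. It averaged 3.20 ± 0.12 in Mfrp rd6 (SD, n = 3) and 2.40 ± 0.15 in wild type (SD, n = 4). Only its change between the groups, 0.80, can be read, since the probe sets differ. This change combines the differences of both chains, the largest of the family in each direction, and is not separate evidence. The other pairs of partner chains compared changed by -0.05 to 0.18. Col10a1, the short-chain collagen of hypertrophic cartilage, read 5.54 ± 0.25 in Mfrp rd6 and 5.63 ± 0.25 in wild type.

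Wild-type replicate 3, which had the highest Col8a1 and Col8a2 of its group, also had the highest skeletal muscle mean of the wild-type arrays (8.38, against 7.06 to 7.36 on the other wild-type arrays). It was also the highest wild-type array for the means of rod markers (8.33, against 7.13 to 7.64) and of smooth muscle and pericyte markers (7.80, against 7.56 to 7.67). The same held for the means of RPE (11.58, against 11.48 to 11.55), microglial, endothelial, Schwann cell and lens markers. It did not hold for fibroblast, cartilage-like, surface epithelium and Mueller glia markers. Over all genes this array was the highest of its group for 32.3%, against 12.5% to 27.5% for the other wild-type arrays. Without that array and Mfrp rd6 replicate 2, the array with the most muscle signal in its own group, the difference of Col8a1 was 0.54 (limma adjusted p = 0.0526). The part of microglial, muscle, pericyte, rod and endothelial markers in the difference of Col8a1 was not tested.

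The promoter windows of Col8a1 and Col8a2 are shown because these partner chains differed in opposite directions. They are from RefSeq (GRCm38.p6), with 250 bases before and 50 after the start of the gene, 5′ to 3′ along the gene, at chr16:57754688-57754987 (minus strand) for Col8a1 and chr4:126286544-126286843 (plus strand) for Col8a2. Capitals mark matches to the GC box letters GGGCGG on either strand, the letters bound by factors of the Sp family.
Col8a1: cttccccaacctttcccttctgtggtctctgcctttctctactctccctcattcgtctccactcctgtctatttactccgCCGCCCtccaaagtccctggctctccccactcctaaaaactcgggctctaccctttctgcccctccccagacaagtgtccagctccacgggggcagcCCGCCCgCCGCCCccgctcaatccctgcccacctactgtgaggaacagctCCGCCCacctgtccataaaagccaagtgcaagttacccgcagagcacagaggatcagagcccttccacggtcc
Col8a2: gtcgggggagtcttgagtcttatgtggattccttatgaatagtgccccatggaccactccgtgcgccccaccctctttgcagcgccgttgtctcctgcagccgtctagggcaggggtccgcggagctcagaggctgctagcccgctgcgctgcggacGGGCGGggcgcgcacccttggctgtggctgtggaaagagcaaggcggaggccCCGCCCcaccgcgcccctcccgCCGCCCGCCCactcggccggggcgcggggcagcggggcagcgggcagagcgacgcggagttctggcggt
Each window held 4 GC box matches, which overlap in Col8a2 where the capitals run together, and 35.7% of all 32851 promoter windows held at least 1. The TATA box (TATAAA), the CCAAT box (CCAAT) and the core letters of the RPE factor OTX2 (TAATCC), searched on both strands, had 0 matches in either window, against 13.6%, 37.4% and 7.06% of all windows with a match. A match is a description of letters, not of a bound site. Windows were at hand for 35 of the 44 collagen genes.

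The fibril-associated collagens sit on the surface of fibrils and link them to other matrix. Of the 9 measured, 0 passed the test and 1 had an unadjusted limma p under 0.05 (11.1%, against 15.4% of all genes). That gene was Col9a3, a chain of collagen IX, which coats collagen II fibrils in cartilage and vitreous. Col9a3 read 9.38, 9.48 and 9.46 in Mfrp rd6, against 9.14, 8.90, 9.27 and 8.93 in wild type. The groups did not overlap, and wild-type replicate 3 was again the highest of its group. The difference was 0.38 (SE 0.10, 95% confidence interval 0.16 to 0.60, limma adjusted p = 0.0948). Col9a3 passed in 4 of 17 alternatives. These were the fit limited to genes above the median signal (limma adjusted p = 0.0476), robust moderation along a trend in the variance (0.035), weighting of the arrays (0.0385) and the omission of wild-type replicate 3 (0.0496). The other chains of collagen IX had positive differences with wide intervals, 0.23 for Col9a1 (-0.10 to 0.56) and 0.14 for Col9a2 (-0.14 to 0.42), and their groups overlapped. The rest of the class, Col12a1, Col14a1, Col16a1, Col19a1, Col20a1 and Col22a1, differed by -0.14 to 0.06.

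The fibrillar collagens form the banded fibrils that give connective tissue its strength. Of 11 measured, 0 passed the test and 2 had an unadjusted limma p under 0.05 (18.2%, against 15.4% of all genes). The chains of collagen I, the main fibril of sclera and choroid, had negative differences of similar size, neither of which passed. Col1a1 read 7.56, 7.51 and 7.59 in Mfrp rd6, against 7.80, 7.70, 7.87 and 7.76 in wild type. All Mfrp rd6 arrays lay below all wild-type arrays, and the difference was -0.23 (SE 0.07, limma adjusted p = 0.146). Col1a2 read 7.34, 7.14 and 7.43 in Mfrp rd6, against 7.44, 7.46, 7.54 and 7.63 in wild type. Its groups were also apart, but by 0.01 at the nearest arrays, and the difference was -0.21 (limma adjusted p = 0.276). Col3a1, which forms thin fibrils beside collagen I, differed by -0.09 (-0.25 to 0.07), and the collagen V chains Col5a1, Col5a2 and Col5a3, which start collagen I fibrils, by -0.03, 0.03 and 0.06.

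Beside collagen I, markers of fibroblasts gave a mean of 7.13 to 7.26 in Mfrp rd6, against 7.27 to 7.35 in wild type, with 0 of 10 higher and 1 lower, the proteoglycan Dcn. Of the 10 markers, 5 had a positive and 5 a negative difference, from -0.92 for Dcn to 0.29 for Clec3b and Scara5. Groups were apart for 15.3% of all genes, 5.52% higher and 9.82% lower. Only Scara5 lay above wild type on every Mfrp rd6 array, at 7.81 to 7.92, against 7.48 to 7.70 (limma adjusted p = 0.0922). Dcn, Pdgfra, Mfap5, Pi16 and Gsn lay below wild type on every Mfrp rd6 array, and of them only Dcn passed the test. Of these markers Pdgfra read 5.65 to 5.82, against 5.89 to 6.29 (limma adjusted p = 0.0827). The nearest arrays of the groups were close for Gsn (10.33, against 10.34 in wild type) and Pi16 (6.00, against 6.02). The part of the fibroblast markers in the collagen I values was not tested.

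Col2a1, the fibril chain of cartilage and vitreous, differed the other way from collagen I. It read 7.31, 7.34 and 7.44 in Mfrp rd6, against 7.28, 6.98, 7.12 and 7.28 in wild type. The groups did not overlap, but the nearest arrays were 0.03 apart, and the difference of 0.20 did not pass (95% confidence interval -0.00 to 0.40, limma adjusted p = 0.331). The collagen XI chains that share its fibrils, Col11a1 and Col11a2, differed by -0.02 and -0.01, and Col24a1 and Col27a1 by -0.03 and 0.10. Markers of cartilage-like cells had a mean of 7.07 to 7.17 in Mfrp rd6, against 6.97 to 7.09 in wild type, with 0 of 7 changed.

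**Figure D2:**
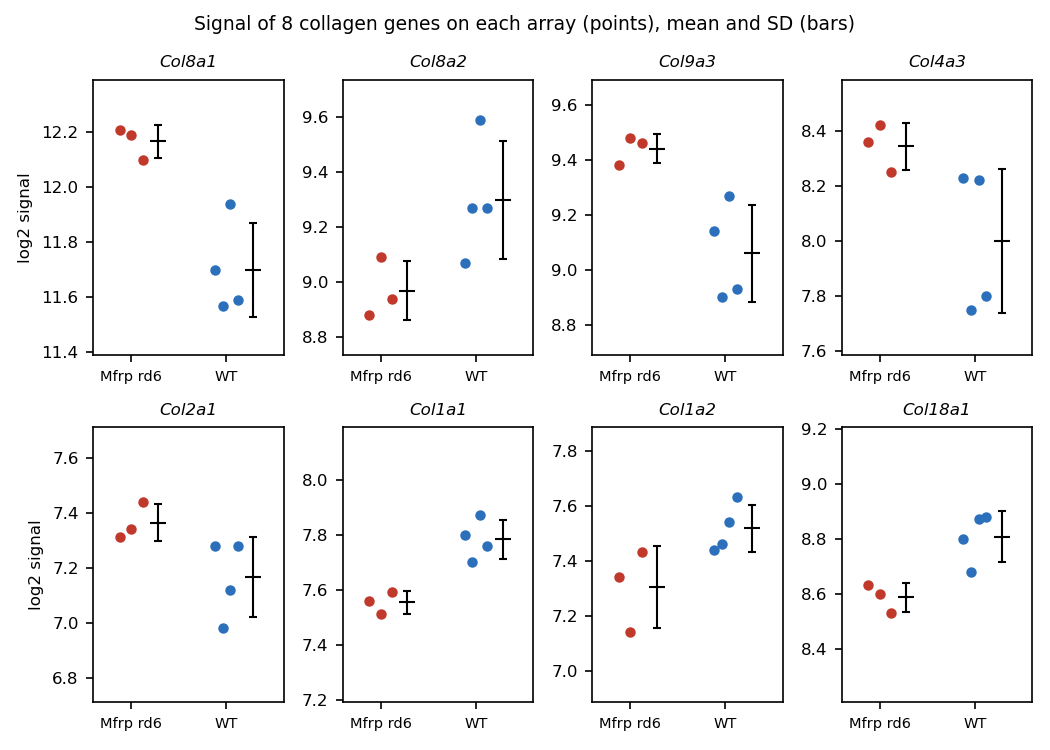
The log2 signal of 8 collagen genes on each array, with the 3 Mfrp rd6 arrays on the left and the 4 wild-type arrays on the right of each panel, and the group mean and SD as bars; the y axes differ in position and do not start at 0. Col8a1, Col9a3, Col4a3 and Col2a1 lie higher and Col1a1, Col1a2 and Col18a1 lower on all Mfrp rd6 arrays, Col8a2 overlaps, and of these genes only Col8a1 passed the test.

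Basement membrane collagen IV is built from sets of chains: Col4a1 with Col4a2 in nearly all basement membranes, and Col4a3, Col4a4 and Col4a5 in a more restricted network found in kidney glomeruli and parts of the eye. Of the 6 chains 0 passed the test, with 1 at an unadjusted limma p under 0.05 (16.7%, against 15.4% of all genes). Col4a3 read 8.36, 8.42 and 8.25 in Mfrp rd6, against 8.23, 7.75, 8.22 and 7.80 in wild type. The groups were apart by 0.02 at the nearest arrays, and the wild-type arrays fell into a higher and a lower pair. The difference was 0.34 (95% confidence interval 0.05 to 0.64, limma adjusted p = 0.24). Its neighbour Col4a4 read 7.57, 7.50 and 7.48 in Mfrp rd6, against 7.45, 7.14, 7.56 and 7.23 in wild type, with the same wild-type arrays high and low and a difference of 0.17 (-0.06 to 0.40). Col4a5 differed by 0.02 and Col4a6 by -0.16.

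The common basement membrane chains differed by less than the spread between arrays. Col4a1 read 6.73 ± 0.04 in Mfrp rd6 (SD, n = 3) and 6.74 ± 0.13 in wild type (SD, n = 4), a difference of -0.01 (95% confidence interval -0.20 to 0.18). Col4a2 read 7.06 ± 0.08 and 7.02 ± 0.14, a difference of 0.04 (-0.16 to 0.23). Within each array Col4a1 minus Col4a2 lay between -0.39 and -0.23 in Mfrp rd6 and between -0.34 and -0.23 in wild type. These genes run head to head on opposite strands, and their RefSeq starts overlap. The 78 bases that their RefSeq promoter windows share, at chr8:11312777-11312854 on the plus strand (GRCm38.p6), are shown. Capitals mark the 22 bases from the start of Col4a2 to the start of Col4a1 on the other strand. The capitals lie downstream of both starts and are not a gap between the genes.
Col4a1 and Col4a2: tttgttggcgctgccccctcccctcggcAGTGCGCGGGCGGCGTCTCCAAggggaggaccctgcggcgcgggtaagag

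Among the multiplexins, basement membrane collagens with an interrupted helix, Col18a1 is the source of endostatin and a component of the RPE basement membrane. Col18a1 read 8.63, 8.60 and 8.53 in Mfrp rd6, against 8.80, 8.68, 8.87 and 8.88 in wild type. All Mfrp rd6 arrays lay below all wild-type arrays, by 0.05 at the nearest, and the difference of -0.22 (SE 0.07, 95% confidence interval -0.39 to -0.06) did not pass (limma adjusted p = 0.189). Col15a1, a multiplexin of vessel and muscle basement membranes, read 6.58 ± 0.12 in Mfrp rd6 (SD, n = 3) and 6.57 ± 0.09 in wild type (SD, n = 4).

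The beaded-filament chains of collagen VI, which tie cells to the fibrillar matrix around them, showed 0 of 6 past the test and 0 at an unadjusted limma p under 0.05. Col6a2 differed by -0.18 (-0.41 to 0.05) and Col6a1 by -0.08 (-0.33 to 0.16), with overlapping groups. Col6a3, Col6a4, Col6a5 and Col6a6 differed by -0.06 to 0.04. Col6a5 and Col6a6 each had a further probe set, with differences of 0.02 and -0.15, so that for each the probe sets differed in sign.

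Col7a1, the anchoring fibril that fastens epithelial basement membranes, differed by -0.07 (-0.29 to 0.16). Col17a1, the transmembrane collagen of the hemidesmosomes of stratified epithelia, read 10.73, 10.60 and 10.71 in Mfrp rd6, against 10.61, 10.71, 10.68 and 10.77 in wild type. Its groups overlapped and the difference was -0.01 (-0.17 to 0.15). Beside it, the mean of surface epithelium markers was 11.24 to 11.35 in Mfrp rd6, against 11.43 to 11.58 in wild type, with 0 of 7 markers changed. The other transmembrane chains, Col13a1, Col23a1 and Col25a1, differed by 0.02 to 0.07, and Col26a1 and Col28a1, which fall in no class above, by -0.03 and 0.07.

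Within each genotype the same arrays tended to be low or high across collagen genes. Wild-type replicate 2 was the lowest of the 4 wild-type arrays for 36 of the 44 genes (81.8%), against 31.4% of all genes, and wild-type replicate 1 was the highest for 27 (61.4%), against 23.5% of all genes. In Mfrp rd6, replicate 1 was the lowest array for 27 genes (61.4%), against 34.8% of all genes, and replicate 3 the highest for 28 (63.6%), against 38.2%. Among the 32 collagen genes with a mean signal of 6 to 7.5, wild-type replicate 2 was the lowest for 84.4%, against 38.0% of the 4471 genes in that range. The shifts were small, with a median collagen deviation from the group mean of -0.17 for wild-type replicate 2 and 0.14 for wild-type replicate 1. The genes share the arrays, so these counts describe 7 arrays and not 44 independent observations. The 8 genes for which another wild-type array was at least as low were Col14a1, Col12a1, Col1a2, Col26a1, Col10a1, Col8a2, Col25a1 and Col17a1.

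**Figure D3:**
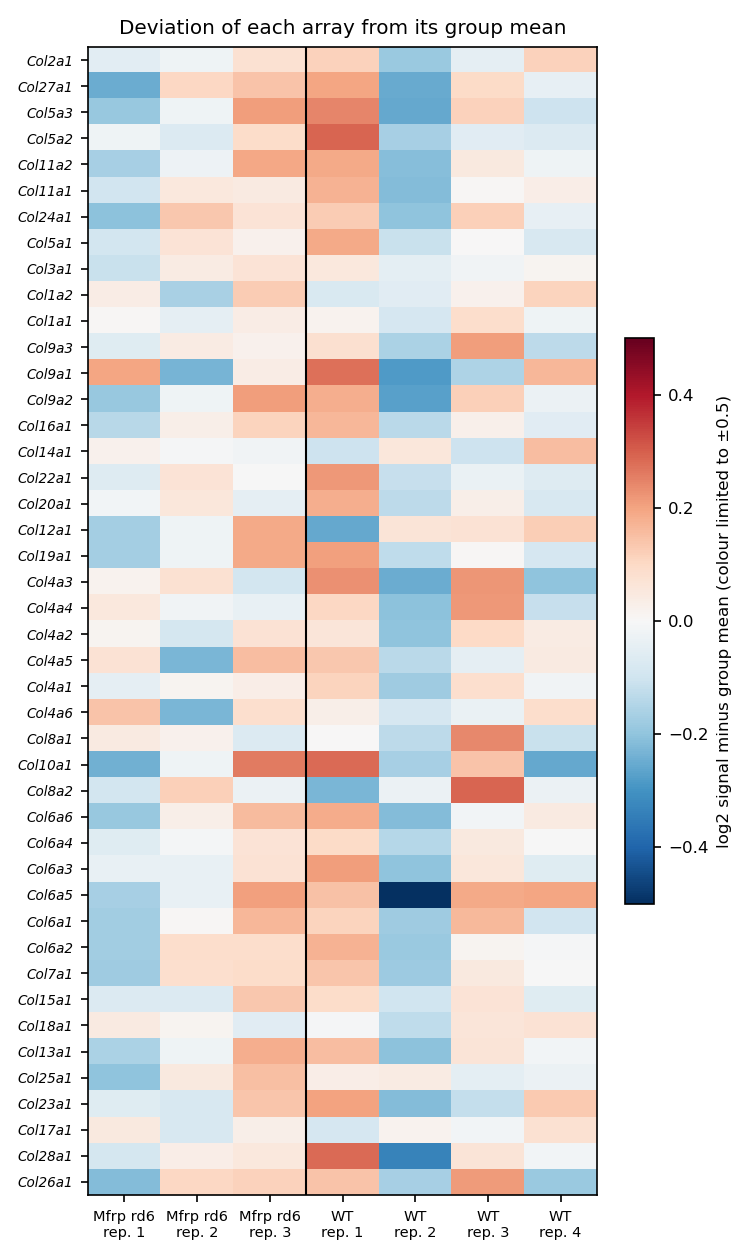
The deviation of each collagen gene (rows, by structural class) on each array (columns, 3 Mfrp rd6 and then 4 wild type) from the mean of its own group, in log2 units, red above and blue below, with the colour limited to 0.5 on either side. Most rows are blue in wild-type replicate 2 and red in wild-type replicate 1, with smaller shifts of Mfrp rd6 replicates 1 and 3.

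Collagen chains are trimmed outside the cell and cross-linked by lysyl oxidases before a fibril is stable. Of 11 measured genes of this processing and cross-linking list, 2 were higher and 1 lower (27.3%). Over all 53 measured genes of the pathway lists 4 were higher and 2 lower (11.3%, against 2.15% of all genes). The lists were chosen with earlier results of these data known, so these shares and those of the single lists below support nothing about the pathway.

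Pcolce, a glycoprotein that speeds removal of the C-terminal propeptide from fibrillar procollagens, read 12.49, 12.41 and 12.41 in Mfrp rd6, against 11.80, 12.04, 11.96 and 11.95 in wild type. The groups were well apart, and Pcolce rose by 0.50 (SE 0.08, limma adjusted p = 0.0104). Loxl1, a lysyl oxidase that cross-links elastin and collagen, read 9.98, 10.05 and 9.96 in Mfrp rd6, against 9.55, 9.48, 9.75 and 9.59 in wild type, a rise of 0.40 (limma adjusted p = 0.0328). Loxl1 passed in only 1 of the 7 fits without 1 array, that without wild-type replicate 3 (adjusted p = 0.0227, and 0.0751 to 0.129 in the others), whereas Pcolce passed in 6 and missed without Mfrp rd6 replicate 1 (adjusted p = 0.0508). Loxl4, a further lysyl oxidase, read 7.70, 8.14 and 7.71 in Mfrp rd6, against 8.64, 8.62, 8.79 and 8.55 in wild type. It fell by 0.80 on the log2 scale (SE 0.11, limma adjusted p = 0.00806), a call also made in all 17 alternatives, and its second probe set differed by -0.92.

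The collagen-folding list, enzymes and chaperones of the endoplasmic reticulum, had 0 of 16 changed, with 5 at an unadjusted limma p under 0.05 (31.2%, against 15.4% of all genes). Among them the prolyl hydroxylase family member P3h3 differed by 0.33 (limma adjusted p = 0.0624) and passed in 5 of 17 alternatives, so that the count of 0 depends on the setting. The lysyl hydroxylase Plod1 differed by 0.31 (limma adjusted p = 0.211). The other 3 had negative differences with groups apart, -0.24 for P4ha2, -0.22 for Mia3 and -0.18 for P4hb, and did not pass. The prolyl isomerase Ppib read 11.43 ± 0.04 in Mfrp rd6 (SD, n = 3) and 11.38 ± 0.07 in wild type (SD, n = 4). The collagenases and gelatinases had 0 of 5 changed and 0 at an unadjusted p under 0.05, with the membrane protease Mmp14 at 9.79 ± 0.15 in Mfrp rd6 and 9.76 ± 0.07 in wild type.

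Among collagen receptors 1 of 9 changed (11.1%, against 2.15% of all genes), Lair1, an inhibitory collagen receptor of leukocytes. Lair1 read 6.02, 6.78 and 6.35 in Mfrp rd6, against 5.63, 5.53, 5.26 and 5.40 in wild type, a rise of 0.93 (SE 0.16, limma adjusted p = 0.0191). Replicate 2, the Mfrp rd6 array with the highest Lair1, also had the highest microglia and macrophage mean of its group (8.89). The other 2 arrays ran in opposite order, with replicate 1 lower in Lair1 but higher in that mean (8.48, against 8.33 in replicate 3). The part of these cells in the value of Lair1 was not tested. Lair1 missed the threshold without Mfrp rd6 replicate 3, wild-type replicate 3 or wild-type replicate 4 (adjusted p of 0.0506 to 0.0582). Its mean signal of 5.85 was too low for the fits that left out dim genes. It was tested in 15 alternatives and passed in 11. The collagen-binding integrin Itga1 (-0.32) and the endocytic collagen receptor Mrc2 (-0.30) did not pass, and the discoidin receptor Ddr1 differed by 0.00.

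Of 12 collagen-binding matrix proteins, 1 rose and 1 fell (16.7%, against 2.15% of all genes). Sparc, a collagen-binding glycoprotein, differed by 0.32 (limma adjusted p = 0.0956) and passed in 2 of 17 alternatives. Bgn, the proteoglycan biglycan, read 10.70, 10.32 and 10.59 in Mfrp rd6, against 9.95, 10.07, 9.88 and 10.17 in wild type, a rise of 0.52 (limma adjusted p = 0.0405). Dcn, the related proteoglycan decorin, which coats collagen I fibrils, read 9.22, 8.97 and 9.42 in Mfrp rd6, against 9.80, 10.17, 10.10 and 10.44 in wild type. The groups were apart in opposite directions for these relatives, and Dcn fell by 0.92 on the log2 scale (SE 0.15, limma adjusted p = 0.014). Bgn passed in 2 of the 7 fits without 1 array, those without Mfrp rd6 replicate 2 or wild-type replicate 4 (adjusted p of 0.0252 to 0.14 over the 7), and Dcn in 5, with adjusted p of 0.0532 and 0.055 when Mfrp rd6 replicate 1 or 2 was omitted. Without both arrays with the most muscle signal, Loxl4 (-0.90, limma adjusted p = 0.00337) was the only 1 of the 6 pathway genes that still passed.

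**Figure D4:**
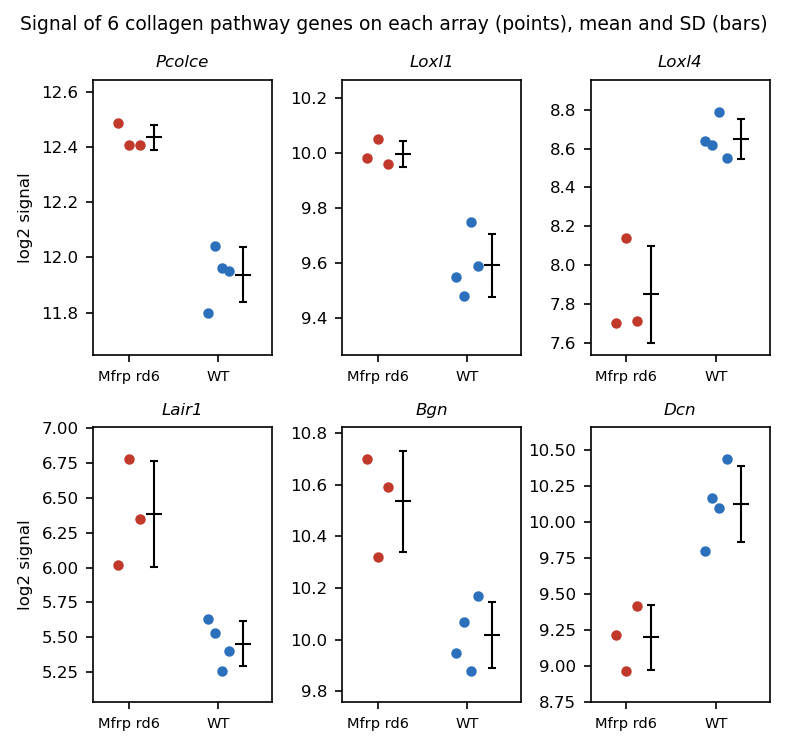
The log2 signal of the 6 changed collagen pathway genes on each array, with the 3 Mfrp rd6 arrays on the left and the 4 wild-type arrays on the right of each panel, and the group mean and SD as bars; the y axes differ in position and do not start at 0. Pcolce, Loxl1, Lair1 and Bgn lie higher and Loxl4 and Dcn lower on every Mfrp rd6 array.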

How the data were processed

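RNA of 3 Mfrp rd6 and 4 wild-type RPE samples was measured on 1 array each. The authors deposited log2 values, 1 per probe set and array, made with Affymetrix Expression Console and RMA per the submitters' processing notes; RMA corrects background, equalises the arrays and summarises probes, and the sources used here give no versions. Array medians lay between 6.52 and 6.58. The number of arrays limits the precision (median SE 0.09).

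Names came from the annotation of the platform, which may be outdated: of 35556 probe sets, 21789 had 1 symbol, 1621 several and 12146 none, and of the 1-symbol probe sets 21698 matched the RefSeq gene table (GRCm38.p6). The probe set with the highest mean was kept per gene. Groups follow the genotype field of the labels and were fitted with limma 3.58.1 (lmFit and eBayes, R 4.3.3, 5 residual degrees of freedom), without filter or block. Tables and figures were made in Python 3.11.15. On simulated data for these 19938 genes, 79% of 100 genes changed by 0.5 and 100% of 100 changed by 1 were recovered, and 8 of 187 calls were false. The simulated noise was independent between genes. Shifts that many genes share on an array, as among the collagen genes, were not part of it, so these rates may not hold for the real arrays.

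The members, gene lists and tests were chosen with earlier results of these data known. Collagen genes were named by structural class (any called member, the highest signal and the largest difference), and of each pathway list up to 4 called members or else the brightest were named; others were named after their values were seen. Of 57 pathway entries 53 were measured; Loxl2 lay on a shared probe set, and Fkbp10, Adamts2, Gp6 and, of the collagens, Col21a1 were not matched. Alternatives were other normalisations, filters on dim genes, variance moderation, array weights, other probe set rules, the replicate block and leaving out arrays.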

Additional observations from a re-analysis of the deposited data

Results flagged for a closer look

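Among the 52 collagen and pathway genes checked for a wild-type array far from the other 3, 2 were found, and chance alone gives about 1 in 20 groups. Col12a1 read 5.94 in wild-type replicate 1, against 6.26 to 6.32 on the other wild-type arrays. Col6a5 read 5.69 in wild-type replicate 2, against 6.37 to 6.42 on the others. Neither gene passed the test in any of the alternatives run for it.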

How the results depend on the processing

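The count of changed genes was 429. It was 718 with a variance trend and robust moderation, 679 with array weights, 225 with the replicate number as a block, 211 to 325 without 1 array, and 193 without the array of each group with the most muscle signal (wild-type replicate 3, Mfrp rd6 replicate 2), an alternative chosen after seeing the data. Changed collagen genes, all higher, were Col8a1 and Col9a3 among genes above the median signal, 2 of the 17 tested, where 516 of 9969 genes changed. The same 2 of 44 changed with the variance trend and with array weights. Changed collagen genes numbered 0 with the replicate block (5 at an unadjusted limma p under 0.05), 0 to 2 without 1 array, and 0 without both arrays (4 at an unadjusted p). The 6 changed pathway genes became 3 with the block, 2 to 4 without 1 array and 1 without both arrays. The causes were not tested, beyond the smaller number of arrays.

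The replicate numbers gave no sign of pairing: deviations from the group means correlated by -0.30, -0.07 and 0.04 for numbers 1, 2 and 3. Arrays of unlike number correlated by -0.27 to 0.37. So few arrays cannot exclude a pairing or a shared batch. With the block Col8a1 differed by 0.43 (limma adjusted p = 0.173). Over the 17 alternatives the sign of Col8a1 was kept in all and its adjusted p ranged from 0.0064 to 0.173, with 9 passing. Of the 44 collagen genes, 17 kept their sign in every alternative in which they were tested, and 2 passed in at least 1. Signal over background was not analysed here, and the number of arrays limits the precision.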
